A study of Mus musculus with 6 samples.

Results

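The cytosolic ribosomal protein genes encode the proteins that, with ribosomal RNA, build the large and the small subunit of the ribosome. They were taken here as the genes of the deposited count table that are annotated as protein-coding and named Rpl or Rps followed by a digit, plus Rplp0, Rplp1, Rplp2 and Rpsa. Names starting with Rps6k (the S6 kinases), Rps27l and Rps19bp1 were left out. The rule uses names only and found 92 of the 54532 genes of the table, 59 of the large and 33 of the small subunit. Of these 92 genes, 86 passed the filter on low counts, 5 had no count in any library (Rpl10l, Rpl39l, Rpl9-ps1, Rpl13a-ps1 and Rpl36-ps4), and Rpl3l, a copy of Rpl3 known from muscle, had 4 to 19 counts and was not tested.

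The libraries came from mouse endothelial cells in culture, infected with lentivirus and harvested at 72 h. The virus carried an empty vector in 3 libraries (control) and RBPMS, an RNA-binding protein with an RRM domain, in the other 3 (RBPMS). The labels name no vessel bed, strain, age or cell line, and the sources used here do not give the promoter that drives RBPMS in the vector. Nothing in the labels says that replicates were separate cultures, so the p-values rest on a spread between libraries that may be technical. In such bulk RNA, fewer cells of a type and less RNA per cell cannot be told apart.

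Ribosomal protein mRNAs are among the most abundant and shortest mRNAs of a growing cell. Most of them start with a C followed by a run of pyrimidines, the 5′ terminal oligopyrimidine (TOP) motif, through which the mTOR kinase and the protein Larp1 control their translation as a group. Each gene also has many processed pseudogenes, copies of its mRNA that were reverse transcribed back into the genome, so that reads from a ribosomal protein mRNA can match several places.

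The start sites are shown first, because a shared start is the feature best known to group these mRNAs. The 20 bases before and the first 20 bases of the first RefSeq start entry are printed 5′ to 3′ (GRCm38.p6), with a run in capitals where a C followed by at least 4 bases that are each C or T begins within 5 bases of that start, on the gene's own strand. The first 8 belong to genes called lower with RBPMS in the 5-library comparison described further on. The last 2 are the copies with the same coding sequence.
Rplp2, chr7:141447631-141447670, plus strand: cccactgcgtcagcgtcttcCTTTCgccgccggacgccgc
Rps2, chr17:24720043-24720082, plus strand: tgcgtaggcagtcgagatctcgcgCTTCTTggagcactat
Rps23, chr13:90923102-90923141, plus strand: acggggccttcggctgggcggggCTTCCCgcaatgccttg
Rpl18, chr7:45718051-45718090, plus strand: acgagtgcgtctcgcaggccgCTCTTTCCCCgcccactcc
Rpl22, chr4:152325706-152325745, plus strand: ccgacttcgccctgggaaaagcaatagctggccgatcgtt
Rpl35a, chr16:33056433-33056472, plus strand: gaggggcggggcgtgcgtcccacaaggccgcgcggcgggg
Rpl41, chr10:128549149-128549188, minus strand: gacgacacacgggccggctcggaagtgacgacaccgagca
Rps28, chr17:33824543-33824582, minus strand: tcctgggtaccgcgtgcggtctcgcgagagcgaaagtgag
Rps27, chr3:90213629-90213668, minus strand: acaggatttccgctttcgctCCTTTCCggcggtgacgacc
Rps27rt, chr9:114982720-114982759, minus strand: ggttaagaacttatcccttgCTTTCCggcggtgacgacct
Of the 9 genes called lower, 8 had a RefSeq entry, and 4 of these 8 held such a run (Rplp2, Rps2, Rps23 and Rpl18). Among the 86 tested ribosomal protein genes 61 had an entry, and 28 of them (45.9%) held a run. The share was 18.5% over all 27025 promoters of the table, 20.1% over the tested genes with an entry, and 21.7% (15 of 69) over the genes of mitochondrial ribosomal proteins. A run that begins exactly at the annotated start was found in 13 of the 61 genes (21.3%), against 2.34% of the tested genes with an entry and 0 of the 69 mitochondrial ribosomal protein genes. Where no run was found, these letters are not in this window of this start entry, which need not be the start used in these cells. The 28 genes with a run and the 33 without had close median log2 fold changes, -0.55 and -0.52 with all 6 libraries and -0.10 and -0.09 without control replicate 3.

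The second set of sequences bears on how counts were split between near-identical genes. The coding sequence of Rps27 on chromosome 3, which encodes a zinc-finger protein of the small subunit, was identical over all 255 bases (stop codon included) to that of Rps27rt on chromosome 9, with 0 mismatches in GENCODE M21. The shared sequence is:
Rps27 and Rps27rt: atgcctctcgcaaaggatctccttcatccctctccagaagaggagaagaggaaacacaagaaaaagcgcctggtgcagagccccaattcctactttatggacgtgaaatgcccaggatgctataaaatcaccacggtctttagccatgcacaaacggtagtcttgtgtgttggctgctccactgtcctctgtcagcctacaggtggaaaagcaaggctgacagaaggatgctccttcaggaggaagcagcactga
Rpl34 (chromosome 3) and the pseudogene Rpl34-ps1 (chromosome 6) differed at 2 of 354 coding bases, T132C and C318G, and Rpl30 (chromosome 15) and the pseudogene Gm12191 (chromosome 11) at 1 of 348, G96A. Each token gives the gene's base, the position counted from 1 at the first base of the start codon, and the pseudogene's base. The 41 bases around T132C and around G96A are printed with the differing base in capitals:
Rpl34: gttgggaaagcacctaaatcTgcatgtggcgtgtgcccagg
Rpl34-ps1: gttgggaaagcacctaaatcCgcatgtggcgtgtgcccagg
Rpl30: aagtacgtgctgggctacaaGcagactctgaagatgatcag
Gm12191: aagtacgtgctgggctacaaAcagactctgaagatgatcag

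Total counts ran from 15779567 to 23076124 per library, and 19799 to 21087 genes had at least 1 count. At these depths 3 counts correspond to 0.130 to 0.190 CPM, which are counts scaled to a common library total. All levels below are CPM that also carry edgeR's TMM factors. Rbpms itself lay at 57.1, 56.8 and 55.2 CPM in control replicates 1 to 3 and at 131, 148 and 133 CPM in RBPMS replicates 1 to 3, so the groups did not overlap. The log2 fold change of Rbpms from all 6 libraries was 1.28 ± 0.10 (SE, edgeR quasi-likelihood adjusted p = 0.0606), and it was 1.27 ± 0.059 without control replicate 3 (edgeR adjusted p = 3.6e-11). All 11 endothelial markers were detected, with a summed level of 20206 to 20916 CPM in control replicates 1 and 2, 16575 CPM in control replicate 3 and 18016 to 18963 CPM with RBPMS. The RBPMS libraries thus lay below control replicates 1 and 2 and above control replicate 3. The 6 leukocyte markers summed to 41.4 to 46.5 CPM in controls and 53.3 to 58.5 CPM with RBPMS, mostly Cd68, with Cd3e and Adgre1 at 0. The 5 mesothelial markers summed to 24.6 to 29.0 and 19.8 to 24.3 CPM, mostly Msln. The 6 cardiomyocyte, 6 fibroblast and 7 smooth muscle and pericyte markers summed to at most 7.79 CPM in any library, with Tcf21 and Rgs5 at 0. The part of these markers in the results on ribosomal protein genes was not tested.

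Control replicate 3 stood apart in these genes. Ribosomal protein genes took 3.16% and 3.26% of all counts in control replicates 1 and 2, 6.58% in control replicate 3, and 3.04%, 3.07% and 3.01% in RBPMS replicates 1 to 3. The share in control replicate 3 was above that of every other library, and the 3 RBPMS libraries lay below all 3 controls. All 86 tested genes were at their highest in control replicate 3, as were 40.3% of all 13898 tested genes. Because of this library, each comparison is given with all 6 libraries and with the 5 libraries that remain without it. Why this library stood apart was not tested.

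**Figure D1:**
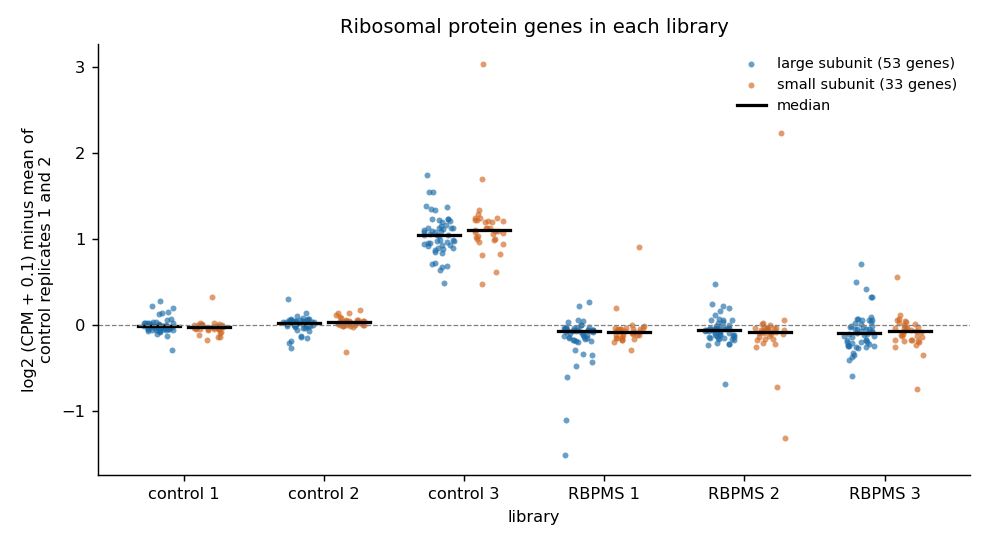
Level of each tested ribosomal protein gene in each library (x axis), as log2 (CPM + 0.1) minus the mean of control replicates 1 and 2 (y axis). Points are genes, blue for the large subunit (53) and orange for the small (33), and bars are medians. Control replicate 3 lies about 1 log2 unit above the other 5 libraries for both subunits, with Rps27rt highest at 3.04.

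With all 6 libraries, all 86 genes had a lower fitted level with RBPMS and none passed the test. The median log2 fold change was -0.55 (middle 50% of genes from -0.62 to -0.46), beside -0.01 over all 13898 tested genes, of which 51% were negative. The edgeR quasi-likelihood test called 0 of the 86 genes at an adjusted p under 0.05, with 4 at an unadjusted p under 0.05, against 7.56% of all tested genes. Over the whole table it called 0 genes (a background of 0%), with 1050 at an unadjusted p under 0.05. DESeq2 called 56 genes and limma-voom 0, and neither called a ribosomal protein gene. In 39 of the 86 genes the 3 RBPMS libraries lay below all 3 controls, against a background of 12.5% of all tested genes. In 0 of the 86 they lay above all 3, against 12.2%, but control replicate 3 was the highest library in each of the 86. The 0 was therefore fixed by that library, which also could not break the order of the 39. It was highest in 40.3% of all tested genes, so the 12.5% and 12.2% are not like backgrounds.

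Without control replicate 3 the same genes differed far less, but most still leaned lower with RBPMS. The median log2 fold change was -0.086 (middle 50% from -0.15 to -0.04), beside -0.003 over all 14123 tested genes. It was negative in 72 genes and positive in 14, beside 50.7% negative over all tested genes. edgeR called 9 genes lower, against a background of 3.43% of tested genes called lower, and 1 gene higher, against 3.81%. That is 10 of 86 genes in either direction, against 7.24%. An unadjusted p under 0.05 was found in 32 of the 86, against 20.9% of all tested genes. Most ribosomal protein genes were abundant (71 exceeded 100 CPM), and the shares among other genes of like level were not taken. In 39 genes the RBPMS libraries lay below both remaining controls, against a background of 19%. These are the 39 genes counted with 6 libraries, since control replicate 3 was the highest library for each. In 4 genes (Rpl10a, Rpl13a, Rpl19 and Rps27rt) they lay above both, against 18.3%.

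**Figure D2:**
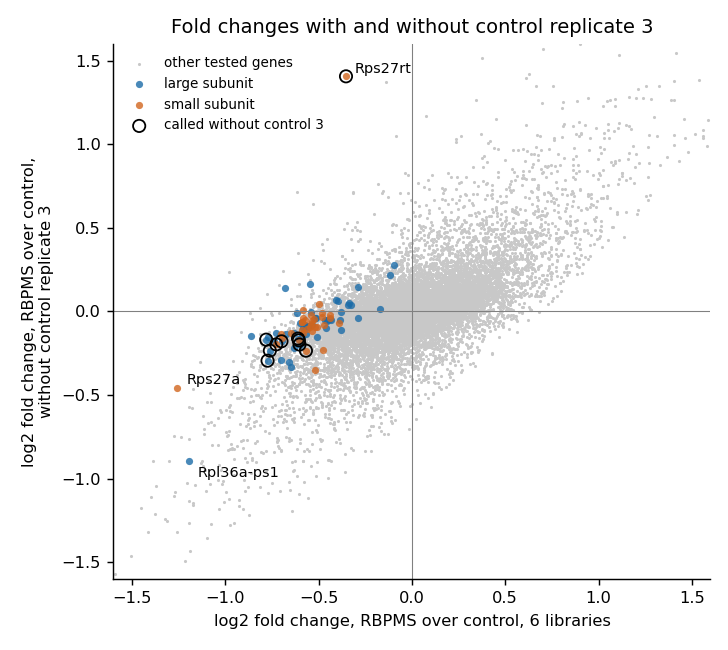
Log2 fold change of RBPMS over control with all 6 libraries (x axis) and without control replicate 3 (y axis). Blue and orange points are ribosomal protein genes of the large and small subunit, grey points are other tested genes, rings mark the 10 genes called without control replicate 3, and 31 other genes past 1.6 on an axis are not shown. All ribosomal protein genes lie left of 0 on the x axis, and 72 of 86 lie below 0 on the y axis.

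The 2 subunits gave like values. The large subunit took 1.87% and 1.92% of counts in control replicates 1 and 2, 3.82% in control replicate 3, and 1.81%, 1.83% and 1.79% with RBPMS. The small subunit took 1.29% and 1.34%, 2.76%, and 1.24%, 1.24% and 1.22%. In both subunits the RBPMS libraries lay just below the lower controls, and control replicate 3 lay far above. The ratio of large to small subunit counts was 1.45, 1.44 and 1.38 in the controls and 1.46, 1.48 and 1.46 with RBPMS, so it was lowest in control replicate 3 and the 3 RBPMS libraries lay above all controls. In the 5 libraries the median log2 fold change was -0.09 over the 53 tested genes of the large subunit (6 called lower, 0 higher) and -0.08 over the 33 of the small subunit (3 lower, 1 higher). In the 6 libraries these medians were -0.56 and -0.54.

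The 9 genes called lower were Rplp2, Rpl36, Rpl22, Rpl35a, Rpl41 and Rpl18 of the large subunit and Rps2, Rps28 and Rps23 of the small, with log2 fold changes from -0.29 to -0.16. All values and adjusted p in this paragraph and the next are from edgeR without control replicate 3, and with all 6 libraries each of the 9 had an adjusted p of 0.587. Rplp2 encodes an acidic protein of the stalk, the arm of the large subunit that recruits the translation factors which hydrolyse GTP. It had the lowest adjusted p, and lay at 308, 315 and 678 CPM in control replicates 1 to 3 and at 254, 266 and 240.1 CPM with RBPMS. Its log2 fold change was -0.29 ± 0.048 (SE, adjusted p = 5.9e-04). The other stalk proteins, named here for their role after their values were seen, were not called: Rplp1 had a log2 fold change of -0.07 and Rplp0, which anchors the stalk, one of -0.004.

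Rps2 encodes a protein at the channel through which the mRNA enters the small subunit. It lay at 702, 705 and 1249.5 CPM in controls and at 611, 629 and 552 CPM with RBPMS (log2 fold change -0.24 ± 0.052, adjusted p = 0.0065). Rps23, a protein of the decoding centre, lay at 358, 363 and 738 CPM and at 321, 323 and 315 CPM (log2 fold change -0.17 ± 0.044, adjusted p = 0.0185). In both genes the RBPMS libraries lay below all controls. Rps28, a protein near the mRNA exit channel, lay at 147, 148 and 343 CPM and at 132, 124 and 129 CPM (log2 fold change -0.20, adjusted p = 0.0139).

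Rpl36 was the next lowest of the large subunit, at 302, 310.4 and 709.6 CPM in controls and 276, 261 and 243 CPM with RBPMS (log2 fold change -0.23 ± 0.051, adjusted p = 0.0061). Rpl22, an RNA-binding protein that is not required for protein synthesis as such, lay at 182, 184 and 359 CPM and at 162, 163 and 153 CPM (log2 fold change -0.20, adjusted p = 0.0109). Its paralog Rpl22l1 had a log2 fold change of -0.09 and was not called (adjusted p = 0.62). Rpl35a, one of the genes mutated in Diamond-Blackfan anaemia, Rpl41, the shortest protein of the set, and Rpl18 had log2 fold changes of -0.18, -0.17 and -0.16, with adjusted p of 0.0293, 0.0307 and 0.0384. Rpl41 lay at 575, 614 and 1534 CPM in controls and at 537, 533 and 514 CPM with RBPMS, so its RBPMS libraries also lay below all controls.

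In GRCm38 coordinates of the deposited table, Rplp2 (ENSMUSG00000025508) lies on chromosome 7 from 141447370 to 141451585 and Rps2 (ENSMUSG00000044533) on chromosome 17 from 24718116 to 24721929, both on the plus strand. Among the other genes called lower, Rps28 and Rpl36 are also on chromosome 17 and Rpl18 is also on chromosome 7, while Rpl22, Rpl35a, Rps23 and Rpl41 are on chromosomes 4, 16, 13 and 10.

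These 9 calls were not equally firm. Rplp2 and Rps2 were called under every one of the 15 further settings and left-out libraries tried without control replicate 3. Rpl18 lost its call when any of the 5 libraries was left out, and Rpl41 and Rpl35a each when any of 4 of them was. Without control replicate 1 or 2 as well, a single control was left, which was assumed to vary like the RBPMS libraries. The median log2 fold change of ribosomal protein genes was then -0.12 without control replicate 1 and -0.050 without control replicate 2. Just outside the threshold were Rps29 (log2 fold change -0.16, adjusted p = 0.0505), Rpl37 (-0.16, 0.053), Rpl12 (-0.15, 0.0539), Rps27a (-0.46, 0.054) and Rpl13a (0.28, 0.0544).

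**Figure D3:**
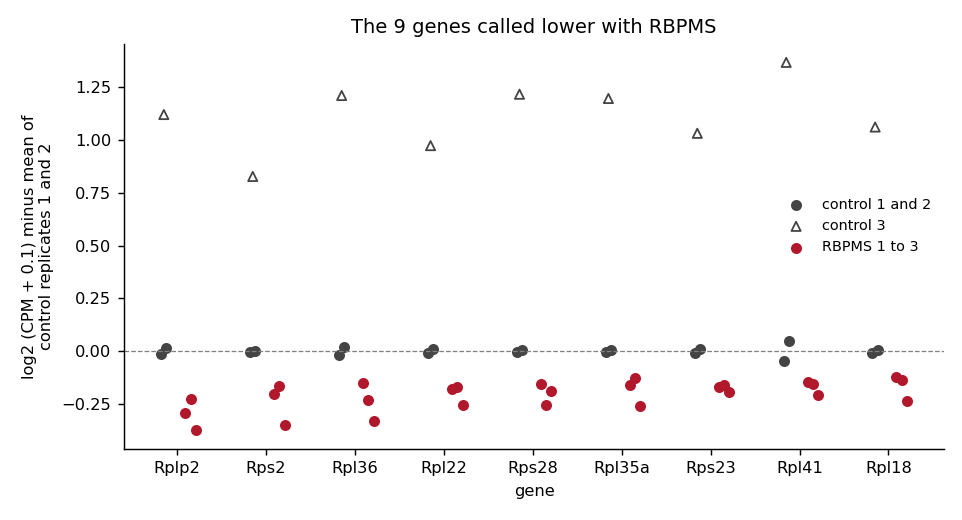
The 9 genes called lower with RBPMS without control replicate 3, with log2 (CPM + 0.1) minus the mean of control replicates 1 and 2 on the y axis. Filled grey points are control replicates 1 and 2, open triangles control replicate 3, red points RBPMS replicates 1 to 3. In each gene the 3 RBPMS libraries lie below both grey points, and control replicate 3 lies above by 0.83 to 1.37.

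The gene called higher was Rps27rt, whose coding sequence is that of Rps27. Rps27rt (ENSMUSG00000050621, chromosome 9, 114982366 to 114982739, minus strand) lay at 30.6, 19.6 and 202 CPM in controls and at 45.96, 116 and 36.0 CPM with RBPMS. Without control replicate 3 it had a log2 fold change of 1.41 ± 0.32 (edgeR adjusted p = 0.0087), against -0.35 with all 6 libraries (adjusted p = 0.848), and DESeq2 did not call it in the 5 libraries (adjusted p = 0.265). Rps27 (ENSMUSG00000090733, chromosome 3, 90212522 to 90213651, minus strand) lay at 139.9, 156 and 206 CPM in controls and at 130.2, 59.3 and 160.2 CPM with RBPMS. The library in which Rps27rt was highest among the RBPMS libraries, replicate 2, was the one in which Rps27 was lowest. With near-identical copies summed, the pair lay at 171, 175 and 408 CPM in controls and at 176, 175 and 196 CPM with RBPMS. The log2 fold change of the sum was 0.08 ± 0.053 without control replicate 3 (edgeR adjusted p = 0.454), so the call was lost. In their coding sequence reads of the 2 genes cannot be told apart.

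**Figure D4:**
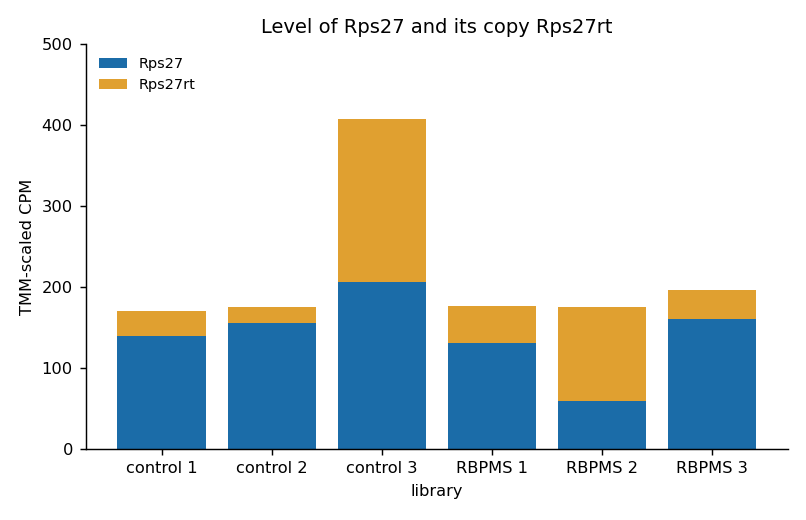
TMM-scaled CPM (y axis) of Rps27 (blue) and of Rps27rt (yellow), stacked, in each of the 6 libraries (x axis). The split between the genes differs from library to library, while the sum is 171 to 196 CPM in every library other than control replicate 3, where it is 408 CPM.

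Such copies were common. At least 95% identity over at least 80% of the coding sequence was found for 83 of the 92 genes, with 552 copies in all, of which 534 are annotated as pseudogenes and 423 had counts. Grouped by such copies, the genes formed 85 families, and in 10 of them the gene that names the family held under 50% of the family's counts. Rpl34 held 3.24% of its family and the pseudogene Rpl34-ps1 95.8%. Rpl34 lay at 9.24, 9.01 and 16.6 CPM in controls and at 6.75, 8.51 and 6.85 CPM with RBPMS, while Rpl34-ps1, from which Rpl34 differs at 2 coding bases, lay at 218, 239 and 527 CPM and at 223, 229 and 231 CPM. Coding reads of the 2 genes can be told apart at those bases alone. Likewise low was the share of Rpl29, with 1.87% of its family beside 82.5% for Gm13841, and of Rps10, with 3.02%. Rpl30 held 20.1% of its family, and its level ran from 11.4 CPM in RBPMS replicate 1 to 53.7 CPM in RBPMS replicate 3, while the family as a whole lay at 184, 199 and 190.1 CPM in the RBPMS libraries. The other families of this kind are Rps3a1, Rpl17, Rpl24, Rpl21, Rpl36al and Rplp0, with 21.6% to 45% of the counts.

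Summing each family narrowed the fold changes mostly at the ends of the range. In the 5 libraries the SD of log2 fold changes was 0.22 with each gene alone and 0.10 over the 80 tested families. Genes alone ranged from -0.90 (Rpl36a-ps1) to 1.41 (Rps27rt), and families from -0.42 to 0.28. The lower and upper quartiles moved little, from -0.150 and -0.040 with each gene alone to -0.130 and -0.035 over families. The edgeR test, added after the data were seen, called 12 families lower, against a background of 3.66%, and 1 higher, against 3.93%. All 9 genes called lower alone were among the 12, joined by Rps29, Rps27a and Rpl11, a protein of the 5S RNA particle that also binds the p53 regulator Mdm2. Rps27a, which is made as a fusion with ubiquitin, was the lowest, at 241, 294 and 839 CPM in controls and at 263, 168 and 166 CPM with RBPMS (log2 fold change -0.42, adjusted p = 0.0328). Its RBPMS replicate 1 lay between control replicates 1 and 2, so the groups overlapped. The family called higher was Rpl13a (log2 fold change 0.28, adjusted p = 0.0403), at 21.1, 22.2 and 41.5 CPM in controls and 25.9, 25.8 and 27.4 CPM with RBPMS. Exons of another annotated gene, Gm45713, overlap 97.5% of the coding sequence of Rpl13a. Gm45713 is 1 of the 2 copies in this family, and it had no counts itself. The part of this overlap in the call was not tested. No family was called by this test in the 6 libraries, in which it called 0 genes over the table.

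Per kilobase of the gene length in the deposited table, levels differed widely among tested genes. The highest, as means over the 6 libraries, were Rplp1, an acidic stalk protein, at 1919 CPM per kb, Rps15, a protein of the head of the small subunit, at 923, Rpl36 at 915 and Rpl4, a large protein that lines the exit tunnel, at 626, beside Rpl8 at 626. The lowest were Rpl36al at 0.637, Rpl29 at 1.03, Rpl36a-ps1 at 1.88 and Rps10 at 2.20 CPM per kb. Most genes were abundant: 71 exceeded 100 CPM and 8 tested genes lay under 10 CPM. In 4 genes, Rpl13a, Rpl24, Rpl36al and Rps10, over 50% of the coding sequence overlapped exons of another annotated gene on the same strand. These 4 had a median of 9.98 CPM per kb of coding sequence, beside 963 for the other 81 tested genes with a coding model. Rpl24, Rpl36al and Rps10 also held only 31.6%, 39.8% and 3.02% of the counts of their families of near-identical copies. The genes whose exons overlap Rpl13a and Rpl36al, Gm45713 and Gm49383, had no counts themselves. The parts of overlap and of copies in these levels were not tested. Of the 92 genes, 30 hold 58 annotated small nucleolar RNA genes in their span, a class of host gene known among TOP mRNAs, and those RNA genes had 714 counts in all.

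The ends of the range of fold changes held few called genes. With all 6 libraries the lowest log2 fold changes were those of Rps27a (-1.26), Rpl36a-ps1 (-1.20), Rpl21 (-0.86), Rpl41 (-0.78) and Rplp2 (-0.77). The ones nearest 0 were Rpl13a (-0.09), Rpl36al (-0.12), Rpl7l1 (-0.17), Rpl4 (-0.29) and Rpl17 (-0.29). The lowest in the 5 libraries were Rpl36a-ps1 (-0.90), Rps27a (-0.46), Rps27 (-0.35), Rpl29 (-0.33) and Rpl34 (-0.30), and the highest Rps27rt, Rpl13a, Rpl36al (0.22), Rpl7a (0.17) and Rpl17 (0.15). Among the 10 genes at the ends in the 5 libraries, Rps27rt alone passed the test there. Rpl36a-ps1 rests on 8 to 36 counts per library and lay at 1.07, 0.864 and 1.59 CPM in controls and at 0.391, 0.558 and 0.603 CPM with RBPMS. Its groups did not overlap, and its adjusted p was 0.226. Rpl17 lay at 61.0, 62.3 and 91.8 CPM with RBPMS, and without RBPMS replicate 3 its log2 fold change was -0.06. Among the 39 genes whose groups did not overlap, the largest changes with 6 libraries, after Rpl36a-ps1, Rpl41 and Rplp2, were those of Rpl38 (-0.77), Rpl36 (-0.76), Rpl24 (-0.74), Rpl37a (-0.73) and Rps28 (-0.73).

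Beside Rps27rt, Rpl22 and Rpl36, whose annotated copy Rpl36-ps4 had no counts, no gene of a paralog pair passed the test. In the 5 libraries Rpl7 had a log2 fold change of 0.05 ± 0.047 and Rpl7l1, named for its likeness to it, one of 0.01 ± 0.051. Rpl36a, at 171, 158 and 367 CPM in controls and 149.7, 149 and 151 CPM with RBPMS, had -0.13 ± 0.047 (edgeR adjusted p = 0.101), and Rpl36al, at 0.679 to 1.23 CPM over the libraries, 0.22 ± 0.41. Rpl10 had -0.10 and its annotated copy Rpl10-ps3 -0.01, Rpl9 -0.05 and Rpl9-ps6 -0.22, Rps12 -0.14 and Rps12-ps3 -0.06, and Rpl27 -0.15 and Rpl27-ps3 -0.29. Rpl3 (0.04), Rpl39 (-0.10) and Rps4x (-0.01) had no tested partner: Rpl3l, Rpl39l and Rpl10l were untested or without counts, and Rps4l is not among the 92 genes.

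The excess in control replicate 3 was shared by all 86 genes but was not equal among them. Its log2 difference from control replicates 1 and 2 (on CPM + 0.1) had a median of 1.08, and it exceeded 1, a 2-fold difference, in 56 of the 86, against a background of 5.06% of tested genes. The largest differences were those of Rps27rt (3.04), Rpl30 (1.75), Rps27a (1.70) and Rpl21 (1.55). The smallest were those of Rps27 (0.48), Rpl7l1 (0.49), Rps10 (0.61) and Rpl4 (0.64).

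Short genes in general were high in this library, and ribosomal protein genes had higher medians than other genes of like length. Among the 20% of tested protein-coding genes with the shortest coding sequence, up to 735 bases, the median log2 difference was 0.60 over 2277 other genes and 1.11 over 71 ribosomal protein genes. In the next 20%, up to 1158 bases, it was 0.30 over 2335 other genes and 1.00 over 12 ribosomal protein genes, and in the longest 20% it was -0.66 over 2347 genes, none of them ribosomal. By the gene length of the table the medians of other genes fell from 0.59 in the shortest 20% to -0.53 in the longest, while those of ribosomal protein genes were 1.12, 1.01, 1.06 and 1.20 in the 4 bins that hold any (49, 26, 9 and 2 genes). Among the 85 ribosomal protein genes with a coding model, coding length and this difference had a Spearman rho of -0.36, as a description over genes that share the same libraries.

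**Figure D5:**
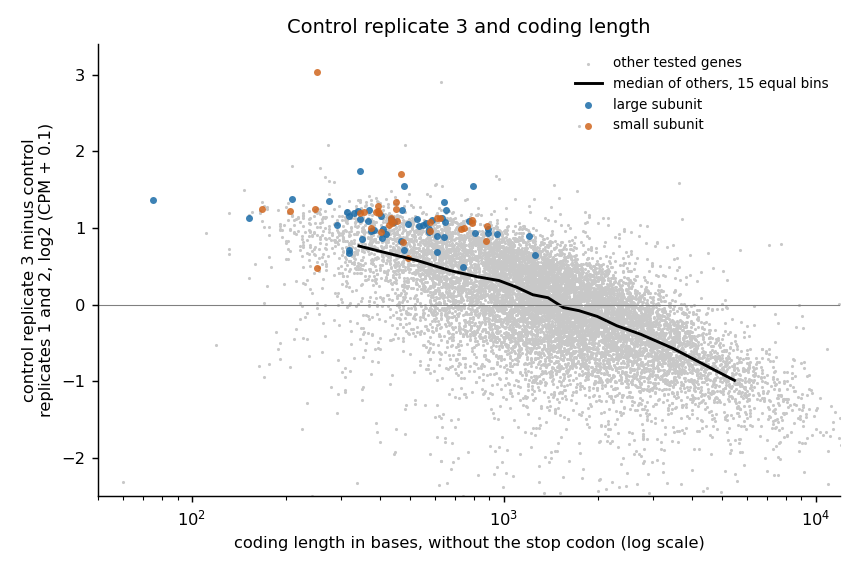
Log2 difference of control replicate 3 from control replicates 1 and 2 on CPM + 0.1 (y axis) against coding length in bases, on a log scale (x axis). Grey points are other tested protein-coding genes with their running median as a black line, blue and orange points are ribosomal protein genes, and 67 other genes outside the axes are not shown. Most ribosomal protein genes, with a median of 1.08, lie above the line for their length, and Rps27 at 0.48 is among the lowest.

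Coding length was also set beside the fold changes without control replicate 3. The 43 genes with up to 453 coding bases had a median log2 fold change of -0.10, with 7 called lower and 1 higher. The 42 longer ones had -0.05, with 2 called lower. Over all tested genes 3.43% were called lower and 3.81% higher, and the shares among other genes of like length were not taken. The rank correlation of coding length and log2 fold change over the 85 genes was 0.40 without control replicate 3 and 0.53 with it, again as a description. Pearson's r with log2 coding length was 0.093 without control replicate 3 and 0.42 with it. For the gene length of the table the rank correlation without control replicate 3 was 0.076. Over other tested protein-coding genes without control replicate 3, the median log2 fold change was -0.03 in the shortest 20% by coding length and 0.03 in the longest, beside -0.09 for the 71 ribosomal protein genes of the shortest 20%. The part of length in the fold changes of single genes was tested only by an offset for the gene length of the table. Under it 12 ribosomal protein genes were called without control replicate 3, Rpl36 no longer among them (edgeR adjusted p = 0.0804). The same fit called 509 of all 14123 tested genes higher and 554 lower.

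Other genes of ribosome making and of the TOP class were read from the same fits, without control replicate 3 unless stated. In the 6 libraries edgeR called no gene of any of these lists. The counts are to be read against the 3.43% of all tested genes called lower and the 3.81% called higher in the 5 libraries. Fau, which is made as a fusion with a ubiquitin-like part, and Rack1, a scaffold on the small subunit, are ribosomal proteins that the name rule misses. Their log2 fold changes were -0.15 and -0.002, and neither was called. Of 22 other TOP mRNAs, which encode mainly translation factors, 2 were called lower (the splicing factor gene Hnrnpa1, -0.19, adjusted p = 0.0201, and the elongation factor subunit Eef1d, -0.16, adjusted p = 0.0451) and 0 higher, with a median of -0.02. Eef1a1, the most abundant elongation factor, lay at 7451, 7648 and 11425.5 CPM in controls and at 7533, 7736 and 7729 CPM with RBPMS. The RBPMS libraries lay within or just above the range of control replicates 1 and 2. The 7 noncoding TOP host genes of small nucleolar RNAs, such as Gas5, had a median of -0.15 and no call.

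Among 47 genes of ribosome assembly, 3 were called lower and 1 higher, with a median of -0.03. Those lower were Eif6, which keeps the large subunit from joining the small one too early (log2 fold change -0.35 ± 0.055, adjusted p = 4.5e-04), and Ebna1bp2 (-0.34, adjusted p = 0.009) and Rrs1 (-0.23, adjusted p = 0.0214), both known from assembly of the large subunit. The gene called higher was Midn (0.17, adjusted p = 0.0304), known mainly for bringing proteins to the proteasome. Eif6 lay at 122, 112 and 199 CPM in controls and at 92.6, 96.3 and 87.0 CPM with RBPMS, with no overlap of the groups. Of 14 genes of RNA polymerase I and its factors, which make ribosomal RNA, Taf1a, a subunit of the promoter factor SL1, was called higher (0.42, adjusted p = 0.0251) and the median was -0.06. Of 21 regulators of ribosomal protein mRNA, Mnt, a repressor that competes with Myc for Max, was called higher (0.60 ± 0.087, adjusted p = 1.9e-04), at 30.3, 31.9 and 17.7 CPM in controls and 47.5, 51.9 and 41.6 CPM with RBPMS. Larp1, which binds the TOP motif, lay at 246, 249 and 171 CPM in controls and at 246, 248 and 249 CPM with RBPMS (log2 fold change 3.2e-05).

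The genes of mitochondrial ribosomal proteins, whose products translate the mitochondrial genome, were the most alike set for comparison. Of these 78 genes, 77 were tested, and their median log2 fold change was -0.06 without control replicate 3, with 3 called lower (Mrps26, Mrpl27 and Mrpl20) and 1 higher (Mrps27). The cytosolic set had -0.09, with 9 lower and 1 higher of 86. The medians in the 6 libraries were -0.37 and -0.55, and in control replicate 3 the median log2 differences from the other controls were 0.85 and 1.08. The difference between the 2 sets was not tested.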

How the data were processed

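The 6 libraries were made from total RNA with ribosomal RNA removal and an NEB kit, per the labels' protocols. The authors deposited whole-number counts for each gene, beside its length in bases. The submitters' processing notes name FastQC, Salmon and mm10. The sources used here give no versions, and neither the step from reads to whole counts nor the handling of strand and of reads that match several places.

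Counts were used as deposited: filterByExpr, TMM, edgeR 4.0.16 quasi-likelihood test on group alone, Benjamini-Hochberg over all tested genes, adjusted p under 0.05 (R 4.3.3), for 6 libraries and for the 5 other than control replicate 3. Each SE comes from the F statistic and the log2 fold change. The main edgeR fit was tested on simulated counts in which no library stood apart. The other steps were not tested in this way. Alternatives used DESeq2 1.42.0, limma 3.58.1, other scalings, no filter, a length offset (loess span 0.3), summed copies, a replicate block and left-out libraries. Copies were found with blastn 2.17.0 in GENCODE M21 transcripts, in which 88 of the 92 genes have the table's coordinates. Coding lengths leave out the stop codon unless stated.

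Named were Rbpms, called genes, the 5 highest and 5 lowest fold changes in each fit, the 4 highest and 4 lowest levels per kb, the 4 largest and 4 smallest differences in control replicate 3, up to 8 genes without overlap of groups, paralog pairs and called genes of the lists. The genes and lists were chosen with earlier results of these data known. One gene of a list is not reported here.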

Additional observations from a re-analysis of the deposited data

How the results depend on the processing

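In the 6 libraries no ribosomal protein gene was called under any of the 10 other settings, and their median log2 fold change stayed negative, from -0.56 to -0.41. Genes called over all tested genes numbered 5 with no filter, 56 with DESeq2, 3 with the length offset and 0 under the other 7 settings. Leaving out 1 library gave 0 to 10 called ribosomal protein genes, 0 to 1022 called genes and medians from -0.75 to -0.086, the last of each without control replicate 3.

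In the 5 libraries without control replicate 3 the 10 other settings gave 10 to 17 called ribosomal protein genes, and medians from -0.090 to -0.073. The 17 came with no filter, where 682 of all 25710 tested genes were called higher and 598 lower. Of 14123 tested genes, DESeq2 called 418 higher and 353 lower, beside 538 and 484 in the main fit. Leaving out 1 more library gave 3 (control replicate 2) to 11 called, 415 (control replicate 1) to 1017 called genes and medians from -0.12 to -0.050.

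Signs turned for some of the genes that were called or lay at the ends of the range. In the 6 libraries Rpl13a was at 0.018 with the length offset and from -0.27 to 0.28 with 1 library left out, Rpl36al at 0.047 and from -0.28 to 0.22, Rpl17 from -0.51 to 0.15, Rpl7a from -0.84 to 0.17 and Rpl7l1 from -0.26 to 0.011. Rps27rt was at 0.21 with limma-voom, at 0.29 with the replicate block and from -1.04 to 1.41 with 1 library left out. Each of these 6 turned positive without control replicate 3, and Rpl36al also without RBPMS replicate 1 (0.010). In the 5 libraries Rpl17 was at -0.069 and Rpl7l1 at -0.010 with the replicate block. With 1 more library left out Rpl17 ran from -0.065 to 0.25, Rpl7l1 from -0.0062 to 0.041 and Rpl21 from -0.37 to 0.0055. Of these turned values, that of Rps27rt without control replicate 3 was the one called. Summed copies, added after the data were seen, put Rpl29 at 0.024 and Rps27 at 0.075, uncalled. The causes were not tested.

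Deviations of same-numbered libraries from their group means correlated at 0.050, -0.025 and 0.013. The control mean includes control replicate 3, which stood apart, so these values cannot decide whether replicate numbers pair the libraries. With the replicate block 0 ribosomal protein genes were called in the 6 libraries (median -0.45). Without control replicate 3 the block fit called 10 (median -0.073), 7 of them shared with the fit that has no block. Of all 14123 tested genes this block fit called 523 higher and 394 lower. In it RBPMS replicate 3 has no control of its number and adds nothing to the fold change, which rests on replicates 1 and 2. Rpl29, Rpl36a-ps1 and Rpl36al rest on 44 counts or fewer per library, which limits what could be detected.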
